A study of Mus musculus with 47 samples.

Results

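Slc6a2 and Slc6a4 are the genes of the noradrenaline transporter and the serotonin transporter, and both were read in a bulk RNA-seq series of the mouse melanoma line B78-D14. They were taken as 2 named genes out of 56748 in a table of read counts, matched by gene identifier to the symbols of the mouse GENCODE annotation. Both had been picked out from measured values of these libraries: Slc6a2 from the cultured m.11,944 60% cells against control cells, and Slc6a4 from the m.12,436 60% tumors against control tumors. Their values in those comparisons are therefore given as descriptions with no test. The same holds for Slc6a4 in the other tumor comparisons, which share tumors with the one that picked it. Slc6a4 in cultures and Slc6a2 in tumors were not the values that picked the genes, and they were tested. The genes and tests were still chosen with earlier results of these data known, so these tests are not independent of the choice.

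B78-D14 is an amelanotic derivative of the B16 melanoma and lacks Cdkn2a. All mutant groups carried a G-to-A change in Mt-Nd5, a mitochondrial gene for a subunit of respiratory complex I, at position 11944 or 12436 of the mitochondrial genome, which truncates the protein. The changes were made with a mitochondrially targeted cytosine base editor, in edited populations of the line rather than in animals, and heteroplasmy is the percentage of mitochondrial genomes with the change. The groups analysed here were 4 control cultures and 4 control tumors of wild-type genotype, 4 cultures of m.11,944 60% cells, 7 m.12,436 60% tumors and 7 m.12,436 40% tumors, all untreated. The tumors were pieces of subcutaneous allografts in immunocompetent male C57BL/6 mice, so each library held host RNA besides RNA of the melanoma cells. The age of the mice is stated differently in different places and is left out here. Tumors of m.11,944 cells and cultures of m.12,436 60% cells were not analysed here.

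Monoamine transporters sit in the plasma membrane and take noradrenaline, dopamine or serotonin back into the cell, driven by the sodium gradient. They belong to the SLC6 family, whose other members carry amino acids, taurine, creatine or GABA. Slc6a2 is best known from sympathetic neurons and the locus coeruleus, and Slc6a4 from serotonergic neurons, platelets and some mast cells. Inside a cell the amines are loaded into vesicles by Slc18a2 or broken down by enzymes such as the monoamine oxidases, and outside it they act on adrenergic, dopamine and serotonin receptors.

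Slc6a2 (ENSMUSG00000055368) lies on the plus strand of chromosome 8 at 93686707 to 93728295 of GRCm39, with exons that cover 7041 bases and no overlapping annotated gene. Slc6a4 (ENSMUSG00000020838) lies on the plus strand of chromosome 11 at 76888903 to 76923169, with exons that cover 5305 bases. One antisense gene, Gm12343, overlaps the body of Slc6a4, but no exon of a counted gene overlaps an exon of Slc6a4. The sequence before the start site of Slc6a4 is shown because Slc6a4 had fewer counts in the mutant cultures and in the 60% tumors than in their controls. It was copied from the RefSeq promoter table on GRCm38.p6, an earlier build than that of the counts, at chr11:76998347-76998596 on the plus strand, and it is written 5′ to 3′ with the TGACG core of a cAMP response element in capitals.
Slc6a4 promoter: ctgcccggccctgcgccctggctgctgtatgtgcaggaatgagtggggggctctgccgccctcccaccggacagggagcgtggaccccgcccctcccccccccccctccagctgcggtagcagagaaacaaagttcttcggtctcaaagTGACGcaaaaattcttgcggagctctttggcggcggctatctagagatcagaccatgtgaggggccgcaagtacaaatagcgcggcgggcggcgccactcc
The motif TGACG was searched on both strands and matched 1 time, starting 101 bases before the start site, and 17.8% of the 32851 promoters in the table held it. The letters GGGCGG, a core of Sp-family sites, matched 3 times at 195, 164 and 15 bases before the start, and 32.7% of promoters held them. TATAAA did not match in this window, and 12.4% of promoters held it. GC content was 64.8%, against a median of 52.4% over all promoters, and 82.3% of promoters had a lower value. Slc6a2 has no entry in that table.

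Library totals on genes lay between 16475735 and 36173502 reads, and a library held few reads of either transporter, so levels are given as counts and as CPM, counts relative to the size of the library. CPM here were scaled with TMM factors over all 26 libraries. A count of 0 is compatible with up to 3 counts, which is between 0.0926 and 0.166 CPM in these libraries, and intervals and floors cover counting error only. In the check of the labelled cell type, the summed CPM of 7 melanocyte lineage markers was 9.96 to 27.2 in control cells, with Tyr at 0 counts, and 20.7 to 62.1 in control tumors. The pan-leukocyte gene Ptprc was at 0 counts in the control cells and at 47.8 to 90.3 CPM in the control tumors.

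Both transporters were scarce messages in all groups. On the per-length scale, CPM per kb of exon, Slc6a4 was highest in control tumors at 1.30 ± 0.465 (SD, n = 4). It followed in 40% tumors at 0.457 ± 0.236 (SD, n = 7), in control cells at 0.190 ± 0.0621 (SD, n = 4), in 60% tumors at 0.108 ± 0.0669 (SD, n = 7) and in m.11,944 cells at 0.0246 ± 0.0210 (SD, n = 4). The ranges of every neighbouring pair of groups in that order overlapped.

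Slc6a2 had another order. It was highest in 40% tumors at 0.156 ± 0.0767 CPM per kb (SD, n = 7), then in control cells at 0.132 ± 0.0411 (SD, n = 4) and control tumors at 0.0997 ± 0.0541 (SD, n = 4). Those neighbours overlapped, as did the lowest pair, 60% tumors at 0.0128 ± 0.0132 (SD, n = 7) and m.11,944 cells at 0.00159 ± 0.00318 (SD, n = 4). Between control tumors, with a lowest value of 0.0438 CPM per kb, and 60% tumors, with a highest of 0.0322, the ranges did not overlap. In the same tumors Slc6a6 and Slc6a8, the taurine and creatine transporters of the family, stood at 21.9 and 21.8 CPM per kb (means, n = 18).

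**Figure D1:**
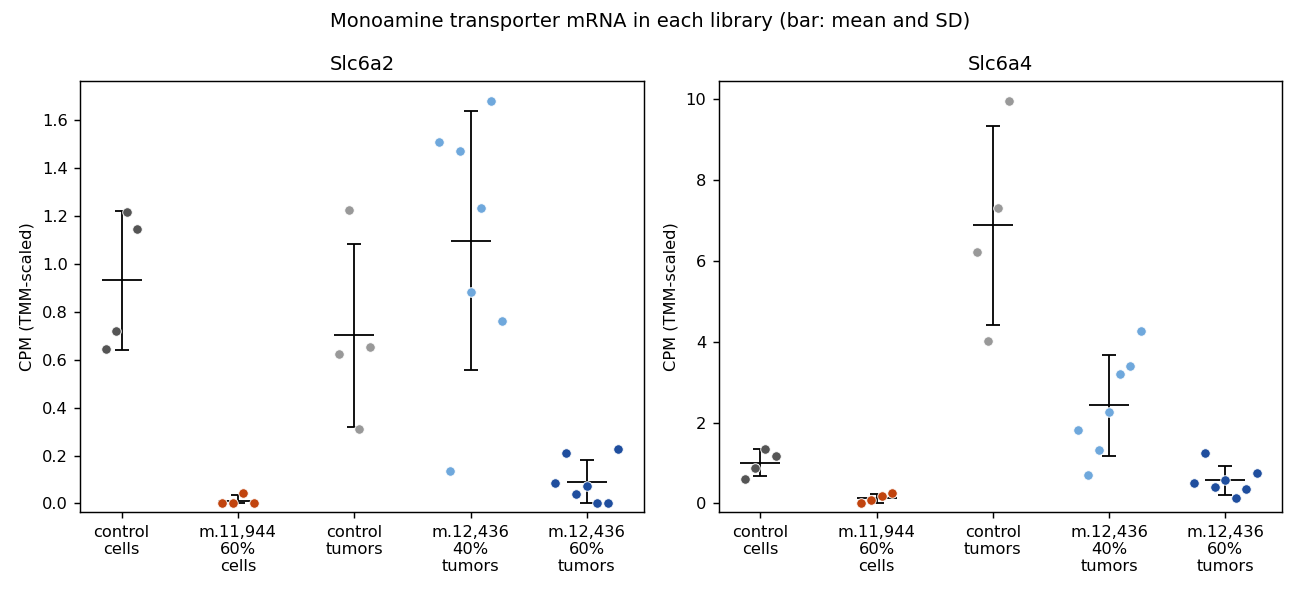
CPM (vertical axes, linear, a different scale for each gene) of Slc6a2 and Slc6a4 in each of 26 libraries of the 5 groups. Points are libraries and bars are the mean and SD. For each gene all 4 m.11,944 60% cultures lie below the control cultures and all 7 m.12,436 60% tumors below the control tumors, while the 40% tumors span the control tumors for Slc6a2 and lie mostly below them for Slc6a4.

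The first comparison asked whether the transporter genes differed between cultures of m.11,944 60% cells and control cells, where no host tissue is present. Slc6a2 had 15, 17, 36 and 29 counts in the control cultures, which is 0.646, 0.720, 1.22 and 1.14 CPM. In the m.11,944 cultures it had 0, 0, 1 and 0 counts. All the mutant cultures lay under every control culture, and 3 of them were at 0. With 1 count in all against 97, the control level was 94.3 times the mutant one after scaling (95% counting interval 16.5 to 3760). The fitted log2 fold change was −5.94 (SE 0.67), a description that chose the gene and that depends on how zeros are handled: without m.11,944 replicate 3, the one culture with a count, it was −7.57.

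Slc6a4 had 14, 21, 40 and 30 counts in the control cultures, or 0.603, 0.889, 1.35 and 1.18 CPM. In the m.11,944 cultures it had 0, 2, 4 and 8 counts, or at most 0.256 CPM. Here too 4 of 4 mutant cultures were under all controls, and the lower-side share of the 12930 tested genes with groups that did not overlap was 1.86%. Summed counts were 14 against 105, a control level 7.29 times the mutant one (95% counting interval 4.16 to 13.8).

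The fitted log2 fold change of Slc6a4 was −2.83 (SE 0.61). In edgeR's quasi-likelihood test its adjusted p of 0.546 did not pass the study's threshold of 0.1 (unadjusted p = 0.00152), a level that 5 genes, 0.0387% of those tested, reached. An exact permutation test, two-sided, of the mean log2 CPM gave p = 0.0286, the smallest that 4 against 4 cultures allow. Same-numbered cultures of the groups deviated together, so the number was also fitted as a block. In that fit the log2 fold change of Slc6a4 was −2.85 (SE 0.41), with an adjusted p of 0.00991 in edgeR's test, and 7.11% of genes were called. DESeq2 without a block gave an adjusted p of 0.00454. Limma-voom gave an adjusted p of 0.559, and edgeR with no filter on low counts 0.369. So the direction held in all of these fits, while the call at 0.1 depended on the fit.

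Control cultures 1 and 2 held less of both transcripts than control cultures 3 and 4. For Slc6a4 the means were 0.746 and 1.27 CPM, and for Slc6a2 0.683 and 1.18 CPM. Within the cultures numbered 1 and 2 the difference of mean log2 CPM was −2.86 for Slc6a4, and within those numbered 3 and 4 it was −2.20. Each set had 2 libraries a group. All mutant cultures lay under every control culture, so a lower value in each set follows from that and adds no support. For Slc6a2 these values were −3.31 and −3.70.

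In tumors, the question was whether the 60% m.12,436 heteroplasmy went with a different level. Slc6a2 had 15, 39, 10 and 15 counts in the control tumors, or 0.623, 1.22, 0.309 and 0.652 CPM. In the 60% tumors it had a lowest count of 0, a median of 2 and a highest of 7, and the CPM ran from 0 to 0.227 with a median of 0.0727. Every one of the 7 mutant tumors was below every control tumor, 2 of them with no count, where 2.66% of the 16213 tested genes had such a gap on the lower side.

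Slc6a2 was lower in the 60% tumors by a fitted log2 fold change of −2.87 (SE 0.64, adjusted p = 0.036, edgeR), and 2.31% of genes passed that threshold. Among the fitted log2 fold changes of all tested genes it was the 8th lowest. Summed counts were 17 against 79, a control level 7.67 times the mutant one (95% counting interval 4.50 to 13.8). The exact permutation test on log2 CPM gave p = 0.00303, the smallest that 7 against 4 tumors allow. With each tumor left out in turn the adjusted p in edgeR's test stayed between 0.0354 and 0.0829. With the replicate number as a block it was 0.169, above the threshold, although same-numbered tumors did not deviate together. Slc6a2 passed the filter on low counts in the fit of all 18 tumors, and in a fit of only the 60% and control tumors it did not, so that fit gives it no value. In bulk pieces of tumor, fewer cells of a type and less RNA per cell cannot be told apart.

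Slc6a4 had 150, 128, 237 and 229 counts in the control tumors, or 6.23, 4.02, 7.32 and 9.95 CPM. The 60% tumors had a lowest count of 3, a median of 12 and a highest of 30, and 0.146 to 1.26 CPM with a median of 0.502. The highest of the 7 was below the lowest control tumor. The log2 fold change, which chose the gene and gets no test, was −3.57 (SE 0.43), and the control level was 11.6 times the mutant one from 744 and 106 counts (95% counting interval 9.44 to 14.3).

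At a heteroplasmy of 40% the genes parted. Slc6a2 had a lowest count of 3, a median of 34 and a highest of 51 in the 40% tumors, or 0.134, 1.23 and 1.68 CPM. Of the 7, 4 lay above all control tumors, 1 below all of them and 2 within their range. The log2 fold change was 0.65 (SE 0.51), with an adjusted p of 0.944 in edgeR's test and an exact permutation p of 0.455. Over all genes, 0% passed the threshold in this comparison, 5.09% had an unadjusted p under 0.05, and DESeq2 called 5 genes.

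Slc6a4 in the 40% tumors had a lowest count of 16, a median of 47 and a highest of 134, or 0.712, 2.27 and 4.26 CPM. Of these, 6 tumors were below all control tumors and 1 was within their range. Its log2 fold change was −1.49 (SE 0.39), as a description, and its control level was 2.63 times that of the 40% tumors (95% counting interval 2.34 to 2.96). The 40% and 60% comparisons use the same 4 control tumors, so their values are not independent.

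Set directly against each other, the 60% and 40% tumors differed in Slc6a2. They were grown from different edited populations of the line, so heteroplasmy and other differences between the populations cannot be told apart. Slc6a2 was lower in the 60% than in the 40% tumors by a log2 fold change of −3.52 (SE 0.56, adjusted p = 0.00611, edgeR). That was the lowest fitted log2 fold change of the 16213 genes, of which 1.81% were called. These values come from the fit that also held the control tumors, where Slc6a2 passed the filter on low counts. With only the 60% and 40% tumors fitted, Slc6a2 failed that filter, so such a fit gives it no value, rank or call. The exact permutation test gave p = 0.00175. Of the 60% tumors 5 of 7 lay under all 40% tumors, and 2 overlapped with 40% tumor replicate 2, which had 3 counts. Without that tumor the log2 fold change was −3.71. For Slc6a4 the corresponding log2 fold change was −2.08 (SE 0.40), as a description, again with 5 of 7 tumors below all 40% tumors. The tumors of the 60% group also enter the comparison with control tumors.

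Between settings the genes also differed. Slc6a4 was higher in control tumors than in control cells by a log2 fold change of 2.79 (SE 0.50), with all 4 tumors above all 4 cultures. Between these settings 33.7% of the 16545 tested genes had such a gap on the higher side, and 74.8% were called at the threshold, 41.3% higher and 33.5% lower. For Slc6a2 the log2 fold change was −0.38 (SE 0.54), with overlapping values. These are descriptions, and growth in a mouse, batch and cell mixture cannot be told apart in them. The ratio of Slc6a4 to Slc6a2 counts was 0.933, 1.24, 1.11 and 1.03 in control cells, so that the counts of both were nearly equal in each culture. In control tumors the ratio was 10, 3.28, 23.7 and 15.3, and in 40% tumors it ran from 0.902 to 5.58. The wide spread in tumors came with both genes, since Slc6a2 varied from 0.309 to 1.22 CPM and Slc6a4 from 4.02 to 9.95 CPM among the controls.

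**Figure D2:**
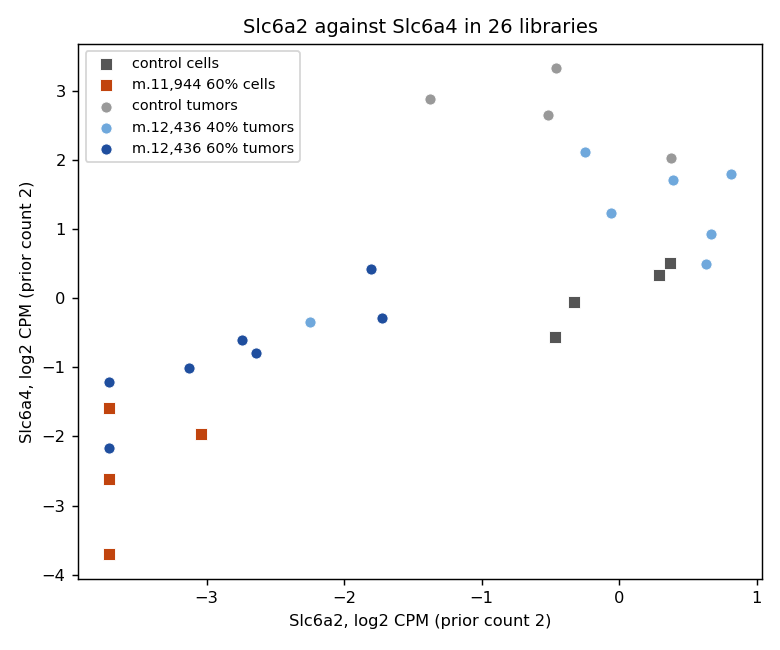
Slc6a2 (horizontal axis) against Slc6a4 (vertical axis) in 26 libraries, both as log2 CPM with a prior count of 2. Squares are cultures and circles tumors; the 60% tumors and m.11,944 cells share the lower left, and 40% tumor replicate 2 is the one 40% tumor that lies next to the 60% tumors.

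Variation of the genes within groups was then compared. After each group's mean was removed, Pearson's r of their log2 CPM was 0.57 and Spearman's rho 0.43 over 18 tumors. Within the 7 60% tumors r was 0.89 and rho 0.92, and within the 7 40% tumors r was 0.60 and rho 0.18. The control tumors did not share that direction: replicate 2, the highest of the 4 in Slc6a2, was the lowest in Slc6a4. Over the 8 cultures r was 0.54 with group means removed. These are descriptions: both genes are read from the same library at low counts and share its depth and cell mixture. Ranked by that r with Slc6a2 over the tumors, Slc6a4 was gene 738 of 16212, so many other patterns lay as close, and over the cultures it was gene 4728 of 12929.

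By the same measure over 18 tumors and 16212 genes, the genes most like Slc6a2 were Mcpt2 (r = 0.90), a mast cell protease, Septin6 (r = 0.89), a cytoskeletal septin, and Gm16576 (r = 0.85). The most opposite were Gdpd1 (r = −0.91), Tnfrsf22 (r = −0.86) and Hgs (r = −0.85). The genes most like Slc6a4 were Meiob (r = 0.80), a factor of meiotic recombination, Inpp4b (r = 0.78), a phosphoinositide phosphatase, and Aim2 (r = 0.78), a sensor of cytosolic DNA. Gtf2e1 (r = −0.82), Strn3 (r = −0.81) and Ptpn21 (r = −0.80) were the most opposite. The lists of 3 shared no gene. Without removing group means they were Hunk, Fam13c and Col24a1 (r = 0.89, 0.89 and 0.86) for Slc6a2, and 9930014A18Rik, Wnt5b and Prdm6 (r = 0.86, 0.86 and 0.85) for Slc6a4, so the names depend on whether the group differences are kept.

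Markers of cells that can carry these transporters were read beside them. The summed CPM of 7 mast cell markers was 26.8 to 143 in control tumors (median 84.4), 21.3 to 90.0 in 60% tumors (median 39.0) and 46.3 to 129 in 40% tumors (median 69.4). All 7 were tested in the 60% tumors against control tumors, 0 were called by edgeR, limma-voom or DESeq2, 0 had an unadjusted p under 0.05, and their median log2 fold change was −0.87. With group means removed the summed mast cell level had an r of 0.71 with Slc6a2 and 0.32 with Slc6a4 over the 18 tumors. Over the 9 marker lists that r ran from −0.67 (sympathetic neuron) to 0.71 (mast cell) for Slc6a2, with 0.57 for T and NK cells and −0.56 for endothelial cells, and from −0.34 (sympathetic neuron) to 0.45 (macrophage) for Slc6a4. In cultures the sum was at most 0.0961 CPM, and 6 of the 7 markers, Cpa3 and Kit among them, were at 0 counts in each group of cells, so the levels of both transporters there stood beside almost no mast cell message.

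The summed CPM of 7 platelet and megakaryocyte markers was 18.8 to 76.2 in control tumors, 7.93 to 28 in 60% tumors and 11.6 to 37.5 in 40% tumors, and 1.28 to 6.32 in cultures, where Gp9 and Gp6 were at 0 counts. Of the 5 tested in 60% tumors against control tumors 0 were called by edgeR and 1 by DESeq2, with a median log2 fold change of −0.30, and 2 had an unadjusted p under 0.05. Over all genes 2.31% were called by edgeR and 6.51% by DESeq2, and 8.31% had an unadjusted p under 0.05 on the lower side. Those 2 were Pf4 and Ppbp, platelet chemokines, with log2 fold changes of −1.18 (SE 0.43) and −2.55 (SE 0.77). Their sum had a group-centred r of 0.43 with Slc6a4 and 0.08 with Slc6a2. The 7 sympathetic neuron markers summed to 4.83 to 19.7 CPM in cultures, 5.74 to 19.3 in control tumors, 4.64 to 10.7 in 60% tumors and 6.96 to 43.4 in 40% tumors. Of these, the noradrenergic synthesis genes Th and Dbh were at 0 counts in the control tumors and in all cultures, while Th had counts in the 40% tumors and Dbh in the 60% tumors. Of the melanocyte lineage markers, the melanosome gene Pmel was lower in the 60% tumors by a log2 fold change of −2.21 (SE 0.51, adjusted p = 0.0456, edgeR), and Mitf had 0.23 (SE 0.14). Limma-voom called 0 of the 2 tested melanocyte markers in that comparison, and DESeq2 called 1. Against control tumors their median log2 fold change was −0.99 in the 60% tumors and −1.38 in the 40% tumors. For the 40% tumors edgeR called 0 of the 2 and DESeq2 called 1, and before adjustment only Pmel fell below 0.05 (edgeR). Ptprc was 76.7 to 143 CPM in 60% tumors, with an adjusted p of 0.136 in edgeR and a call by DESeq2, and macrophage markers summed to 925 to 1160 CPM in control tumors and 791 to 1410 in 60% tumors. The part of these cell types in the tumor results was not tested.

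Other genes of monoamine handling were read from 9 lists with 103 genes, most of which had too few counts. In cultures 32 had enough counts for the test and in tumors 47. In the m.11,944 cultures 0 of 32 were called by edgeR without a block, limma-voom or DESeq2, 2 had an unadjusted p under 0.05, both lower, where 2.27% of all genes did, and their median log2 fold change was −0.04, against −0.00 over all genes. With the replicate block 4 were called. Slc6a8, the creatine transporter, was lower by a log2 fold change of −0.39 (adjusted p = 0.0643, edgeR). Prkcb, a protein kinase C, was lower by −0.87 (adjusted p = 0.0775, edgeR), and Prkg1, a cGMP-dependent kinase, by −1.27 (adjusted p = 0.00991, edgeR). Tgfb1i1, a focal adhesion protein that binds monoamine transporters, was higher by 0.63 (adjusted p = 0.0551, edgeR). In that fit 3.02% of all genes were called higher and 4.09% lower.

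In the 60% tumors 1 of 47 list genes was called, Prkg1, with a log2 fold change of −0.97 (SE 0.24, adjusted p = 0.0585, edgeR). Its level was 0.133 to 0.162 CPM per kb in control tumors and 0.0439 to 0.0984 in 60% tumors, which did not overlap, and 0.0848 to 0.203 in 40% tumors. Over all genes 1.34% were called lower. The call was lost without control tumor 1 or control tumor 3, with 0 list genes left, and 3 were called without control tumor 4. In the 40% tumors 0 list genes were called by edgeR or DESeq2 and 0 had an unadjusted p under 0.05, with a median log2 fold change of −0.00. Between 60% and 40% tumors 0 were called by edgeR, 2 by DESeq2 (Prkg1 and Prkcb), and 5 had an unadjusted p under 0.05, all lower, where 7.12% of all genes did.

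Within the SLC6 family 18 genes besides the monoamine transporters Slc6a2 and Slc6a4 were counted, and 5 had enough counts in tumors. They were Slc6a6, Slc6a8, Slc6a9, Slc6a15 and Slc6a17, which carry taurine, creatine, glycine and, for the last ones, neutral amino acids. In the 60% tumors against control tumors 0 of the 5 were called in edgeR's test, and 1 had an unadjusted p under 0.05 on the lower side, where 8.31% of all genes did. It was Slc6a17, with a log2 fold change of −1.21 (adjusted p = 0.156, edgeR). Slc6a6 had −0.09 and Slc6a8 −0.06 there. The dopamine transporter gene Slc6a3, the third of the monoamine transporters, did not have enough counts in cultures or tumors to be tested.

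In the lists other than the SLC6 family and the trafficking partners, 0 genes were called in the 60% tumors against control tumors by edgeR, limma-voom or DESeq2, and 0 had an unadjusted p under 0.05. For synthesis and storage, 7 genes of monoamine synthesis had enough counts in tumors and 0 were called in the 60% tumors, with a median log2 fold change of 0.00. The highest on the per-length scale were Spr and Qdpr, which make and recycle the cofactor tetrahydrobiopterin, at 16.5 and 6.27 CPM per kb. Slc18a2, the vesicular monoamine transporter, stood at 0.585 CPM per kb and had a log2 fold change of −0.28 (SE 0.18, adjusted p = 0.453, edgeR). Slc47a1, the other highest of the storage and uptake list, was at 0.0253 CPM per kb.

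All 7 genes of monoamine breakdown had enough counts in tumors, and 0 were called, with a median log2 fold change of −0.14 in the 60% tumors. Aldh2, an aldehyde dehydrogenase, was the highest at 47.8 CPM per kb, with a log2 fold change of −0.17 (SE 0.10). Maoa, which oxidises serotonin and noradrenaline, had −0.00 (SE 0.10) there and −0.09 (SE 0.13) in the m.11,944 cultures.

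Of the receptors, 3 serotonin receptor genes and 4 adrenergic receptor genes had enough counts in tumors and 0 were called. Htr7 and Htr2b stood at 0.431 and 0.118 CPM per kb, with log2 fold changes of 0.32 (SE 0.37) and 0.17 (SE 0.38) in the 60% tumors. Adra2a was the highest of the adrenergic receptors at 0.754 CPM per kb, with −0.15 (SE 0.29). No dopamine receptor gene had enough counts, and the highest, Drd4 and Drd1, were at 0.0224 and 0.0119 CPM per kb.

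The 15 trafficking partners all had enough counts in tumors, led by the phosphatase subunits Ppp2r1a and Ppp2ca at 86.0 and 30.1 CPM per kb, and their median log2 fold change in the 60% tumors was −0.00. Of the transcription factors of noradrenergic and serotonergic neurons 5 of 15 had enough counts and 0 were called. Gata2 and Nkx2-2 were the highest at 5.36 and 1.90 CPM per kb, with log2 fold changes of −0.16 (SE 0.10) and −0.05 (SE 0.13). No test compared the transporter genes with these lists.

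**Figure D3:**
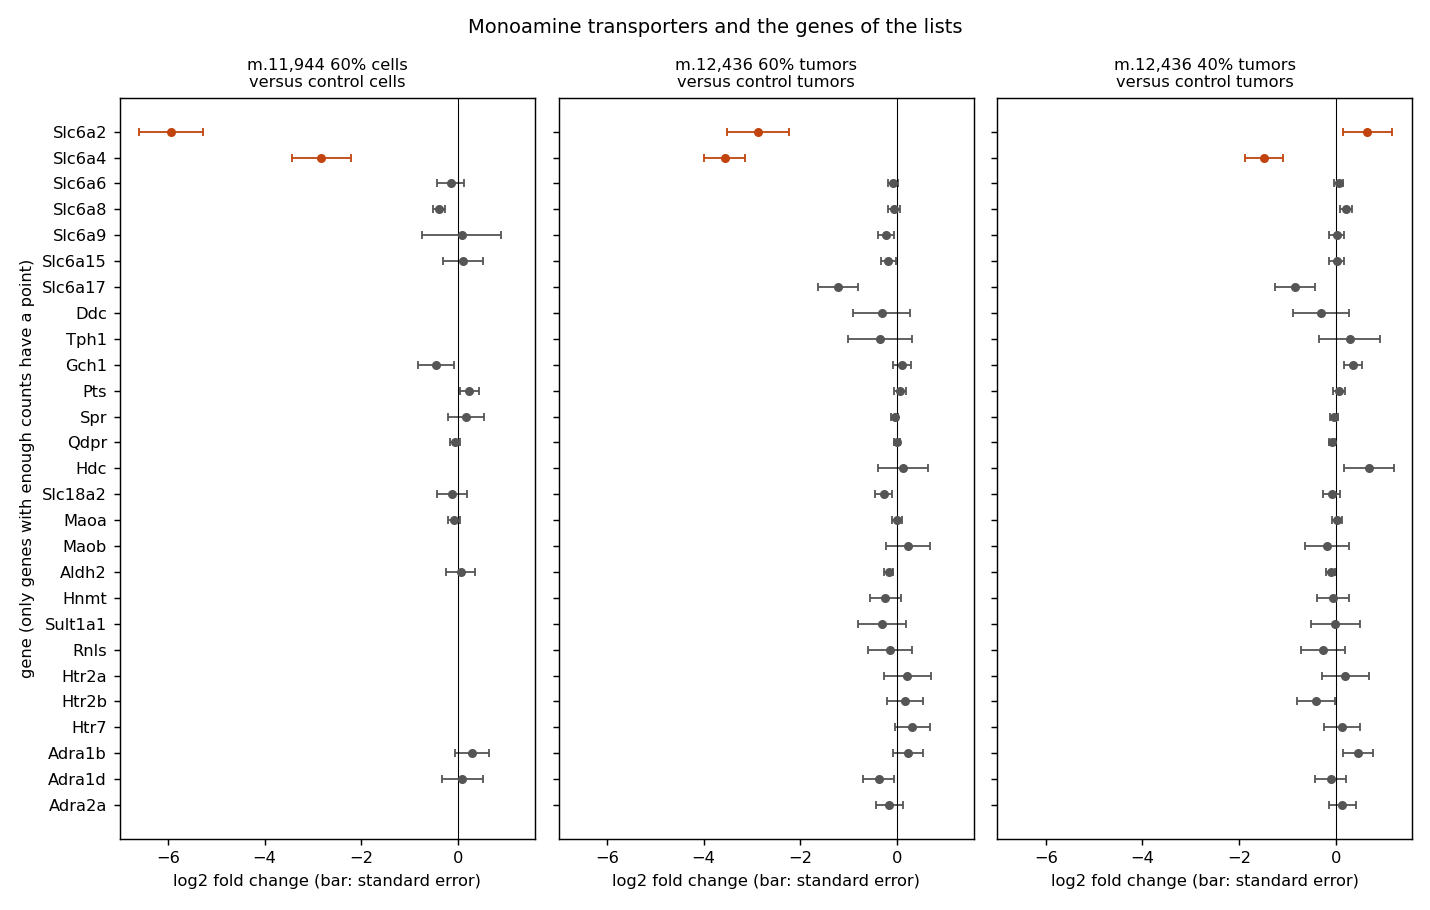
Log2 fold change (horizontal axes) with its standard error for Slc6a2 and Slc6a4 (orange) and for SLC6, monoamine and receptor genes with enough counts (grey), in the 3 comparisons with controls. In the first 2 panels the transporters lie between −2.83 and −5.94 and Slc6a17, at −1.21 in 60% tumors, is the lowest grey point; in 40% tumors Slc6a2 is at 0.65 and Slc6a4 at −1.49.

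Neighbouring genes on the chromosome were read for the same comparisons. Within 250 kb of Slc6a2, 16 genes were annotated, and 3 others had enough counts in tumors: Mmp2, a gelatinase, Lpcat2, a lipid acyltransferase, and Gm45472. In the 60% tumors against control tumors 0 of them were called by edgeR or DESeq2, where 2.31% and 6.51% of all genes were, and 1 had an unadjusted p under 0.05, where 16.3% of all genes did, with log2 fold changes of −0.43 (SE 0.34) for Mmp2, 0.41 (SE 0.16) for Lpcat2 and 0.41 (SE 0.26) for Gm45472. No neighbour of Slc6a2 had enough counts in cultures. Within 250 kb of Slc6a4, 6 others were tested: Gosr1, Cpd, Blmh, Nsrp1, Efcab5 and Ssh2. In edgeR's test 0 of the 6 were called in cultures, where their log2 fold changes ran from −0.25 to 0.36, and 0 in 60% tumors, where they ran from −0.14 to 0.13. Blmh, a peptidase gene with its start upstream of that of Slc6a4, was the 1 gene of these with an unadjusted p under 0.05 in the 60% tumors (0.00851, adjusted p = 0.154, edgeR), and DESeq2 called 1 of the 6 there.

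**Figure D4:**
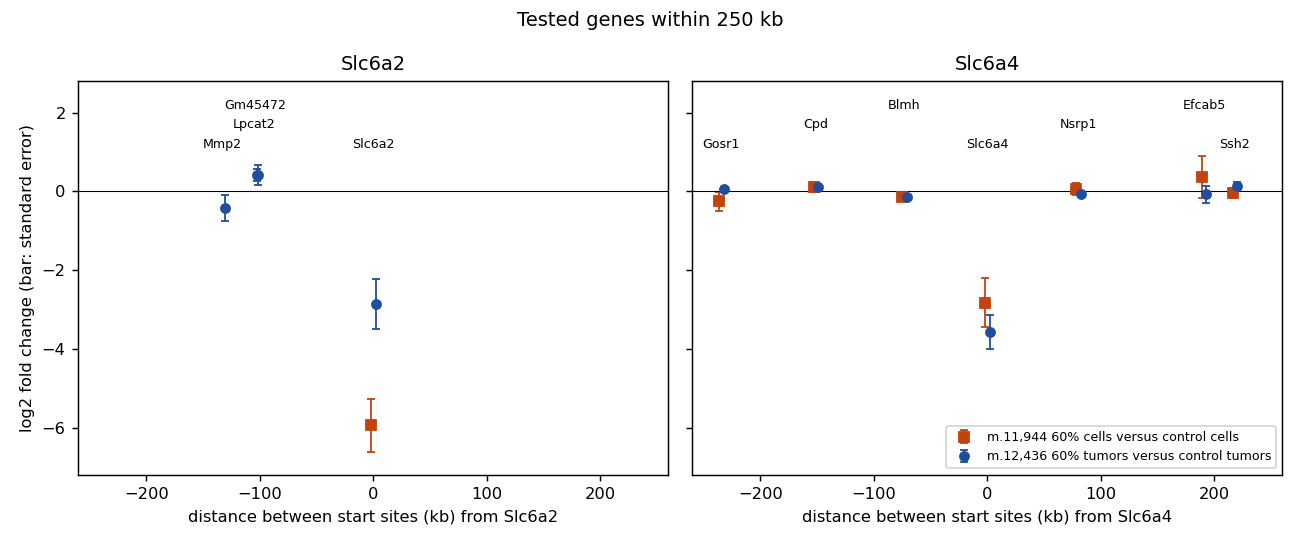
Log2 fold change with its standard error (vertical axis) of tested genes against the distance of their start from that of Slc6a2 or Slc6a4 in kb (horizontal axes), for m.11,944 60% cells (orange squares) and m.12,436 60% tumors (blue circles) against their controls. All neighbours lie between −0.43 and 0.41, and the transporter genes between −2.83 and −5.94.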

How the data were processed

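Reads were aligned to GRCm39 by the authors with STAR. Gene counts were made with featureCounts, and the deposited counts are raw. The strand setting is not given in the sources used here. Of 47 columns, 26 were matched to samples: those of m.11,944 cells through a heading of the study's source data, controls by name and extent of numbering, and tumors of high and low heteroplasmy as 60% and 40%. The other 21 columns were not used. Symbols and exon lengths were looked up in GENCODE (GRCm39), which held 56017 of the 56748 identifiers.

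Tests used edgeR 4.0.16 in R 4.3.3 (TMM, filterByExpr, robust quasi-likelihood fit, two-sided tests, Benjamini-Hochberg adjustment over all genes tested, threshold 0.1). The 8 cultures and the 18 tumors were fitted separately, and a joint fit gave control tumors against control cells. A prior count of 2 was used for log2 CPM. Scripts were tested on simulated data. The members, lists, markers and tests were chosen with earlier results of these data known. Named genes were the members, list genes called in a comparison between mutant and control or between heteroplasmies, the 2 highest of each list in tumors, tested genes within 250 kb, the 3 most alike and opposite, and markers, of which a few are not reported here; Slc6a3, Slc6a9, Slc6a15, Slc6a17, Slc18a2, Maoa and Ptprc were added for context.

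Same-numbered cultures correlated in their deviations from the group means (r from 0.718 to 0.832 over 4 pairs, pairing from the labels' numbers), and same-numbered tumors did not. Nothing says whether cultures were grown separately, so their p-values measure the spread between these libraries, which may be technical. The p-values of the tumors measure the spread between tumors of each group. Each mutant group came from its own edited population, so the mutation and other differences between populations cannot be told apart. Alternatives were limma-voom (limma 3.58.1), DESeq2 1.42.0, DESeq2 size factors, other filters, a threshold of 0.05, a prior count of 0.25, only the groups compared, the replicate block, and leaving out each library. Totals of 16475735 to 36173502 counts per library leave the members with few counts, so their precision is limited by counting.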

Additional observations from a re-analysis of the deposited data

Results flagged for a closer look

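In 10 sets of libraries checked for a distant one, 2 were found, and chance flags about 1 in 20 such sets. For Slc6a2 in m.11,944 60% cells, replicate 3 stood apart with 1 count (0.0448 CPM) while the others were at 0, so the gap was 1 of the whole range; a single count carries it. For Slc6a2 in m.12,436 40% tumors, replicate 2 stood below the others at 0.134 CPM, with a gap of 0.653 of the range. Its Slc6a4 level, 0.712 CPM, was also the lowest of the 40% tumors.

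The log2 changes of Slc6a2 from control tumors differed between the 60% and 40% tumors by −3.52 (60% minus 40%, adjusted p = 0.00611 in edgeR's test of the difference). The 60% tumors were lower in Slc6a2 than the 40% tumors in 5 of 7 cases with no overlap.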

How the results depend on the processing

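No alternative turned the direction of either gene. In cultures, Slc6a4 went from an adjusted p of 0.546 to a call with DESeq2 (log2 fold change −2.87) and with the replicate block (−2.85), and leaving out each culture gave −3.42 to −2.46, with no call. For Slc6a2 there, leaving out cultures gave −7.57 to −5.54. In 60% against control tumors, Slc6a2 lost its call with the replicate block (−2.92, adjusted p = 0.169 in edgeR), where the tumors share only a number, and leaving out tumors gave −3.33 to −2.43. Of the fits that gave it a value, the others kept the call. Between 60% and 40% tumors it kept its call in the fits that gave it a value, with −3.98 to −3.27 when a tumor was left out, and in 40% against control tumors it had 0.39 to 1.09 and no call.

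List genes called in cultures rose from 0 to 4 with the block. In 60% tumors the count of 1 became 2 with DESeq2 or only the groups compared, 0 at a threshold of 0.05 or with the block, and 0 to 3 without a tumor. Between heteroplasmies the count of 0 became 2 with DESeq2, 1 with at least 10 counts in every sample, and 0 to 2 without a tumor: 1 without 40% tumor 4 and 2 without 40% tumor 7. Over all genes, cultures gave 5 calls with edgeR, 84 with DESeq2, 919 with the block and 0 without any one culture. The 60% against control tumors gave 374 calls, 1056 with DESeq2, 943 with only the groups compared, 178 with the block and 150 at 0.05, and 66 to 724 without a tumor. The 60% against 40% tumors gave 293, then 744 with DESeq2, 178 with no filter, 113 at 0.05 and 108 to 452 without a tumor. The 40% against control tumors gave 0, then 5 with DESeq2 and 0 to 4 without a tumor. The cause of these changes was not tested. The filter of at least 10 counts in every sample drops both members, so it gives them no value, and with only the groups compared Slc6a2 fails the filter in both comparisons of the 60% tumors. The replicate block changed no other call of the members. Counts of Slc6a2 under 10 in the m.11,944 cultures and 60% tumors limit what can be said of differences among those libraries.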

Other observations

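Control tumors and control cells were also compared for the monoamine and SLC6 lists, where setting, batch and cell mixture cannot be told apart. Of 47 list genes tested, 23 were higher in tumors and 14 lower, where 74.8% of all genes were called, 41.3% higher and 33.5% lower, so the count is near the background and says nothing particular about the lists. Higher in tumors were Adra2a, an adrenergic receptor, by a log2 fold change of 4.92 (SE 0.46, adjusted p = 1.06e-09, edgeR), and Maob, a monoamine oxidase, by 5.05 (SE 0.90, adjusted p = 2.53e-05, edgeR). Htr7, a serotonin receptor, was at 0 counts in all cultures and at 24 to 85 counts in control tumors. Lower in tumors were Maoa, by −1.38 (SE 0.12, adjusted p = 3.36e-10, edgeR), and Slc18a2, by −0.89 (SE 0.25, adjusted p = 0.00292, edgeR). Of the SLC6 family, Slc6a8 had 0.01 (SE 0.14) and Slc6a6 −0.54 (SE 0.19, adjusted p = 0.0126, edgeR). These genes were chosen for their roles after the values were seen.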
